A study of Danio rerio with 6 samples.

Results

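Glucose is broken down to pyruvate and lactate by glycolysis, rebuilt from lactate and amino acids by gluconeogenesis, and stored as glycogen. The genes of these 3 routes were examined in whole zebrafish embryos that lack the microRNA miR-34a. A list of 58 zebrafish gene symbols was matched without regard to case to the Ensembl gene IDs of a count table with 32520 IDs. The match gave 61 gene IDs, of which 34 belonged to glycolysis, 13 to gluconeogenesis, 6 to glycogen and 8 to regulators. Of the 58 symbols, 31 matched directly and 3 (pgk1, pdk2a, pfkfb4b) through IDs that the study names. For the other 24 the symbol table gives only a family name in the human style (ALDOA for aldoaa and aldoab, PYGM for pygma), so these are printed as family name and ID, and which paralog each ID is was not decided.

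Embryos were collected 72 hours post-fertilization (hpf). The miR-34a-/- group held 3 libraries, from maternal-zygotic homozygous embryos of a line with a CRISPR/Cas9 deletion of miR-34a, and the wild-type group held 3 libraries. Both were in the casper background, a line with little pigment, and no agent was given to either. Each library was 1 pool of embryos, 30 by the series design and 30 to 50 by the extraction protocol. The mutant line was kept apart from the wild-type line, so differences between the lines and differences from the deletion cannot be told apart.

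Glucose that enters glycolysis is first phosphorylated by a hexokinase, which traps it in the cell. Phosphofructokinase and pyruvate kinase make the committed steps further down, and lactate dehydrogenase turns pyruvate into lactate and back. Gluconeogenesis runs around the committed steps with its own enzymes, pyruvate carboxylase, phosphoenolpyruvate carboxykinase, fructose-1,6-bisphosphatase and glucose-6-phosphatase, and in vertebrates it takes place mainly in liver and kidney. Muscle and liver use different paralogs for many of these steps, and fish often have an additional copy of each. In human cancer cells miR-34a has been reported to repress several genes of glycolysis, LDHA among them.

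The mature microRNA is shown because it is what the mutant embryos lack. The study's sensor for miR-34a holds 3 target sites that are the reverse complement of the microRNA, so the oligonucleotide of the opposite strand carries 3 copies of its 22 letters, written here as DNA from 5′ to 3′. The capitals mark the seed, bases 2 to 8, through which a microRNA pairs with its target transcripts.
miR-34a: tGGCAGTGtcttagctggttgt

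Total counts ran from 10507151 to 16369150 in the miR-34a-/- libraries and from 10273343 to 15856562 in the wild-type libraries. The value of 3 counts was 0.193 to 0.293 CPM (counts scaled to library size) in miR-34a-/- and 0.186 to 0.285 CPM in wild-type. The ID of the deleted gene, MIR34A, had 0 counts in all 6 libraries, so the labels could not be checked on it. miR-34a-/- replicate 1 stood apart, at a distance of 1.33 and 1.57 on the log2 scale from replicates 2 and 3, which lay 0.866 from each other (the wild-type libraries were 0.726 to 0.818 apart). Members whose call changed without this library are named with their values from both fits. The marker genes of liver, fast muscle, heart, neurons, photoreceptors, red cells, enterocytes, kidney tubule and islets all had counts in each library.

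Of the 61 member IDs, 60 passed the filter on low counts. A gene was said to pass the test when its p-value, adjusted over the 19240 genes tested, was under 0.05 in edgeR's quasi-likelihood test. In this test 4 members passed, all higher in miR-34a-/-: gck and hkdc1, which phosphorylate glucose, LDHB of lactate dehydrogenase, and PYGM (ENSDARG00000055518), a muscle-type glycogen phosphorylase. They were 6.67% of the members tested, where 2.60% of all genes passed, 1.33% higher and 1.27% lower. Only 1 of the 2 PYGM IDs can be the listed pygma, so PYGM (ENSDARG00000055518) may lie beyond the list. The same holds for the 2 PC IDs (pcxb listed) and the 2 PFKP IDs (pfkpa listed). Altogether 3 family IDs lie beyond the members. With a fold change above 1.5 as well, 2 members passed (gck and hkdc1), 3.33% of the members against 1.88% of all genes. No member passed as lower with edgeR's quasi-likelihood test or DESeq2 (1 did with the likelihood ratio test, and 2 had an unadjusted p under 0.05). With 1 library left out, 23 members passed without miR-34a-/- replicate 1 (38.3%, against 15.6% of all genes). The number was 2 without its replicate 2 and 4 without its replicate 3. It was 2 without wild-type replicate 1, 0 without replicate 2 (where 12 had an unadjusted p under 0.05) and 1 without replicate 3. The number of all genes that passed also moved between these fits, and its range is given in the closing section. Of the fits with a library left out, only that without miR-34a-/- replicate 1 has its share of all genes here. The counts of the other fits were not read as a result about the members. An unadjusted p under 0.05 was reached by 16 members (26.7%), against 15.3% of all genes.

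**Figure D1:**
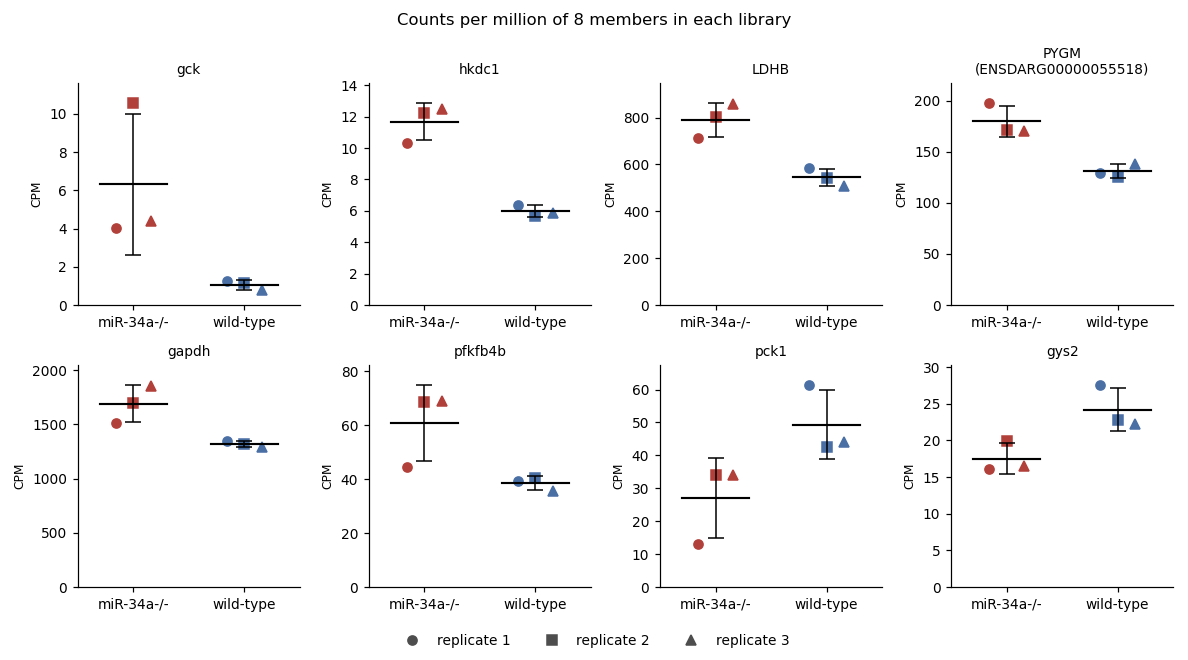
CPM (y axis, from 0) of 8 member genes in the 3 miR-34a-/- libraries (red, left) and the 3 wild-type libraries (blue, right), with the replicate number given by the symbol; lines are means and bars SD. gck, hkdc1, LDHB and PYGM (ENSDARG00000055518) passed the test, gapdh, pfkfb4b, pck1 and gys2 did not, and in all 8 panels the genotypes do not overlap. Of all 60 members tested, 10 did not overlap and were higher (16.7%, against 11.0% of all genes). Lower with no overlap were 3 (5.0%, against 10.2% of all genes).

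The largest change among the members was in gck, which encodes glucokinase, the hexokinase of liver and pancreatic islets that works at high glucose. gck had 4.01, 10.6 and 4.38 CPM in miR-34a-/- replicates 1, 2 and 3, against 1.24, 1.14 and 0.760 CPM in wild-type replicates 1, 2 and 3. These are low counts, 45, 108 and 68 in miR-34a-/- and 20, 12 and 8 in wild-type. Every mutant library lay above every wild-type library, and mutant replicate 2 was well above the other mutants. The log2 fold change was 2.53 ± 0.43 (SE, n = 3 per genotype), a 5.79-fold rise with an adjusted p of 0.0130. It was 2.74 without miR-34a-/- replicate 1, at an adjusted p of 7.15e-05. The call was lost without wild-type replicate 1, 2 or 3, at adjusted p-values of 0.0792, 0.0787 and 0.0836, and all 11 alternatives lay between 5.84e-07 and 0.0836.

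In the RefSeq annotation of another assembly (GRCz12tu), gck overlaps tbc1d10aa and holds myl7, a heart myosin light chain, within its bounds. Whether reads were counted by strand is not given in the sources used here, so reads of overlapping genes could be shared. tbc1d10aa had 27.1, 28.8 and 23.7 CPM in miR-34a-/- and 27.0, 30.5 and 32.3 CPM in wild-type (log2 fold change -0.17, adjusted p = 0.477). myl7 had 29.4, 29.5 and 34.4 CPM in miR-34a-/- and 29.9, 34.4 and 29.2 CPM in wild-type (log2 fold change 0.0032, adjusted p = 0.991). Neither neighbour passed the test.

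hkdc1 encodes a further hexokinase, named for its hexokinase domain. It had 10.3, 12.2 and 12.5 CPM in miR-34a-/- and 6.39, 5.68 and 5.89 CPM in wild-type. The genotypes did not overlap, and the rise was 1.95-fold (log2 fold change 0.96 ± 0.14 SE, adjusted p = 0.00657). The call held without miR-34a-/- replicate 1 (log2 fold change 1.04, adjusted p = 0.000202) and was lost only without wild-type replicate 2, at 0.0506, the highest of 12 alternatives (lowest 1.90e-06).

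hk1, the broadly expressed hexokinase and the coding gene next to hkdc1 in RefSeq, had 122, 134 and 126 CPM in miR-34a-/- and 139, 125 and 118 CPM in wild-type. Its log2 fold change was 0.0012 ± 0.0793 (SE; adjusted p = 0.996), and the genotypes overlapped. hk2, the hexokinase of muscle and other insulin-responsive tissues, had 17.3, 18.2 and 15.6 CPM in miR-34a-/- and 15.7, 13.9 and 12.4 CPM in wild-type (log2 fold change 0.27 ± 0.13, adjusted p = 0.342). The lowest mutant value of hk2 lay just under the highest wild-type value.

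As shares of the counts of all 4 hexokinase genes, gck took 2.60%, 6.02% and 2.76% in miR-34a-/- and 0.763%, 0.778% and 0.555% in wild-type. The share of hkdc1 was 7.18% ± 0.61 in miR-34a-/- and 4.04% ± 0.23 in wild-type (SD, n = 3 each). The summed hexokinase counts overlapped between genotypes, at 0.0157%, 0.0171% and 0.0150% of all counts in miR-34a-/- and 0.0165%, 0.0148% and 0.0140% in wild-type. hk1 held most counts of the step. Shares are of counts, not of molecules, because transcript lengths were not used, and they were compared only between genotypes.

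Steps 2 to 5 of glycolysis interconvert and split the hexose phosphates. None of their 14 gene IDs passed with 6 libraries in edgeR or DESeq2. As 2.60% of all genes passed in edgeR, a list this short may hold none. An unadjusted p under 0.05 was reached by 2 of the 14, against 15.3% of all genes. The most counted ID of glucose-6-phosphate isomerase (gpia and gpib), GPI (ENSDARG00000012987), had 130, 176 and 175 CPM in miR-34a-/- and 170, 146 and 132 CPM in wild-type. The log2 fold change was 0.10 ± 0.13 (SE; adjusted p = 0.757), and mutant replicate 1 lay below all wild-type libraries while replicates 2 and 3 lay above them. Without replicate 1 the log2 fold change was 0.23 (adjusted p = 0.0856). The other isomerase ID, GPI (ENSDARG00000103826), stayed between 65.3 and 71.9 CPM in the 6 libraries.

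Phosphofructokinase commits the sugar to glycolysis, and its genes come as muscle (PFKM), liver (PFKL) and platelet (PFKP) types. The most counted, PFKM (ENSDARG00000014179), had 108, 121 and 111 CPM in miR-34a-/- and 119, 107 and 105 CPM in wild-type (log2 fold change 0.0373 ± 0.0766, adjusted p = 0.860). The 6 phosphofructokinase IDs had log2 fold changes from -0.30 to 0.08, with a median of -0.07. The 2 liver-type IDs were at -0.13 ± 0.22 (ENSDARG00000060504) and -0.27 ± 0.13 (ENSDARG00000099755), and the platelet-type IDs at -0.30 ± 0.16 (ENSDARG00000012801) and -0.0082 ± 0.111 (ENSDARG00000028000), all with adjusted p-values of 0.350 or more. This was the glycolytic step with the lowest median.

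Aldolase splits fructose-1,6-bisphosphate. Its muscle-type ID with most counts, ALDOA (ENSDARG00000034470), had 964, 998 and 1112 CPM in miR-34a-/- and 873, 911 and 921 CPM in wild-type (log2 fold change 0.18 ± 0.07 SE, adjusted p = 0.269). ALDOA (ENSDARG00000011665) had 569, 614 and 626 CPM in miR-34a-/- and 580, 502 and 489 CPM in wild-type (log2 fold change 0.20 ± 0.08, adjusted p = 0.274). The first did not overlap between genotypes and the second did, by replicate 1 of each. Both passed without miR-34a-/- replicate 1, with log2 fold changes of 0.23 and 0.24 and adjusted p-values of 0.0357 and 0.0381, the lowest of 12 alternatives that ran up to 0.533 and 0.651.

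The brain-type aldolase IDs varied widely between libraries of 1 genotype. ALDOC (ENSDARG00000057661) had 1.42, 4.79 and 4.90 CPM in miR-34a-/- and 4.34, 2.84 and 1.52 CPM in wild-type. ALDOC (ENSDARG00000019702) had 203, 298 and 310 CPM in miR-34a-/- and 293, 239 and 213 CPM in wild-type. In both, mutant replicate 1 and wild-type replicate 3 were the lowest libraries of the 6, and neither passed (log2 fold changes 0.32 ± 0.45 and 0.12 ± 0.16, adjusted p = 0.779 and 0.764). Without mutant replicate 1 the log2 fold changes were 0.68 and 0.29, and the second passed at 0.0498. The same 2 libraries were the lowest for triosephosphate isomerase in its most counted ID, TPI1 (ENSDARG00000040988), at 358, 434 and 478 CPM in miR-34a-/- and 415, 400 and 348 CPM in wild-type (log2 fold change 0.13 ± 0.11, adjusted p = 0.619). TPI1 (ENSDARG00000025012) was at 0.29 with 6 libraries (adjusted p = 0.364), and at 0.44 without mutant replicate 1, where it passed (0.0104).

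The lower part of glycolysis, in which ATP is gained, held several of the members closest to the threshold. gapdh, the dehydrogenase that reduces NAD, had 1517, 1701 and 1857 CPM in miR-34a-/- and 1344, 1322 and 1291 CPM in wild-type. The genotypes did not overlap, and the log2 fold change was 0.36 ± 0.08 (SE), or 1.28-fold (adjusted p = 0.0524). The adjusted p of gapdh was under 0.05 in 4 of 12 alternatives, the lowest without miR-34a-/- replicate 1 (0.000378, log2 fold change 0.43) and the highest value being 0.262. Its paralog gapdhs, in mammals the sperm form, had 600, 754 and 774 CPM in miR-34a-/- and 716, 655 and 617 CPM in wild-type (log2 fold change 0.10 ± 0.10, adjusted p = 0.691), and a log2 fold change of 0.21 without mutant replicate 1 (0.0616). The share of gapdhs in the counts of the pair was 29.5% ± 1.2 in miR-34a-/- and 33.4% ± 1.2 in wild-type (SD, n = 3 each), with no overlap.

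pgk1, the first ATP-forming kinase of the route, had 290, 363 and 364 CPM in miR-34a-/- and 283, 256 and 248 CPM in wild-type. It did not overlap between genotypes, and the log2 difference was 0.37 ± 0.10 (SE), or 1.29-fold (adjusted p = 0.0935). Without miR-34a-/- replicate 1 the log2 difference was 0.47 and the adjusted p was 0.000261, and the adjusted p reached 0.369 at most over 12 alternatives. pgam2, the muscle phosphoglycerate mutase, had 157, 152 and 169 CPM in miR-34a-/- and 143, 141 and 144 CPM in wild-type (log2 fold change 0.16 ± 0.07, adjusted p = 0.296). pgam1a and pgam1b, the other mutases, had log2 fold changes of 0.0425 ± 0.127 and 0.0679 ± 0.108.

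eno3, the muscle enolase, had 608, 706 and 773 CPM in miR-34a-/- and 627, 559 and 555 CPM in wild-type (log2 fold change 0.26 ± 0.09 SE, adjusted p = 0.223). eno2, the enolase of neurons, had 62.8, 83.6 and 73.2 CPM in miR-34a-/- and 87.7, 75.9 and 69.4 CPM in wild-type (log2 fold change -0.09 ± 0.12, adjusted p = 0.763). The 2 enolases stood on opposite sides of 0, and the share of eno2 in all enolase counts was 5.99% ± 0.54 in miR-34a-/- and 7.38% ± 0.39 in wild-type, with no overlap. The eno1 family IDs had log2 fold changes of 0.34 ± 0.21 (ENO1, ENSDARG00000013750) and 0.20 ± 0.10 (ENO1, ENSDARG00000022456), with adjusted p-values of 0.477 and 0.355. Without mutant replicate 1, eno3 was at 0.35 and the ENO1 IDs at 0.55 and 0.30, and all 3 passed (adjusted p = 0.00405, 0.00842 and 0.00924), while eno2 was at 0.0039.

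Pyruvate kinase closes the route. PKM (ENSDARG00000099860) had 488, 645 and 660 CPM in miR-34a-/- and 518, 478 and 471 CPM in wild-type, so mutant replicates 2 and 3 lay above all wild-type libraries and replicate 1 lay among them. Its log2 fold change was 0.29 ± 0.11 (SE; adjusted p = 0.242). Without miR-34a-/- replicate 1 it was 0.42, at an adjusted p of 0.000541 (up to 0.567 over 12 alternatives). The second muscle-type ID, PKM (ENSDARG00000099730), had a log2 fold change of 0.17 ± 0.14 (adjusted p = 0.589), and of 0.32 without that replicate, where it passed (0.0152). pklr, the kinase of liver and red cells, had 32.5, 50.1 and 45.6 CPM in miR-34a-/- and 45.2, 43.3 and 34.0 CPM in wild-type (log2 fold change 0.06 ± 0.16, adjusted p = 0.888). Without mutant replicate 1 pklr was at 0.22 (adjusted p = 0.171).

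Lactate dehydrogenase is a tetramer of A subunits, the main form of fast muscle, and B subunits, the main form of heart in mammals. LDHB (ENSDARG00000019644), the ID left for ldhba, had 714, 801 and 856 CPM in miR-34a-/- and 583, 543 and 509 CPM in wild-type. It rose 1.45-fold with no overlap (log2 fold change 0.54 ± 0.0851 SE, adjusted p = 0.00935). The adjusted p was 2.49e-05 without miR-34a-/- replicate 1. With 1 library left out at a time, it was over the threshold without miR-34a-/- replicate 2 (0.0606), wild-type replicate 2 (0.0782) and wild-type replicate 3 (0.0809), and lay between 5.32e-07 and 0.0809 in 12 alternatives.

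ldha had 292, 303 and 319 CPM in miR-34a-/- and 266, 250 and 247 CPM in wild-type, also with no overlap (log2 fold change 0.26 ± 0.07 SE, 1.20-fold, adjusted p = 0.0872). Over 12 alternatives its adjusted p ran from 0.00834, without miR-34a-/- replicate 1 (log2 fold change 0.29), to 0.367. ldhbb had 6.32, 11.5 and 10.4 CPM in miR-34a-/- and 11.7, 9.28 and 7.32 CPM in wild-type (log2 fold change -0.014 ± 0.235, adjusted p = 0.984). Lactate dehydrogenase counts together were 0.103%, 0.109% and 0.112% of all counts in miR-34a-/- and 0.0875%, 0.0813% and 0.0782% in wild-type. The LDHB share of them was 71.5% ± 0.9 in miR-34a-/- and 67.3% ± 0.6 in wild-type (SD, n = 3 each), with no overlap.

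**Figure D2:**
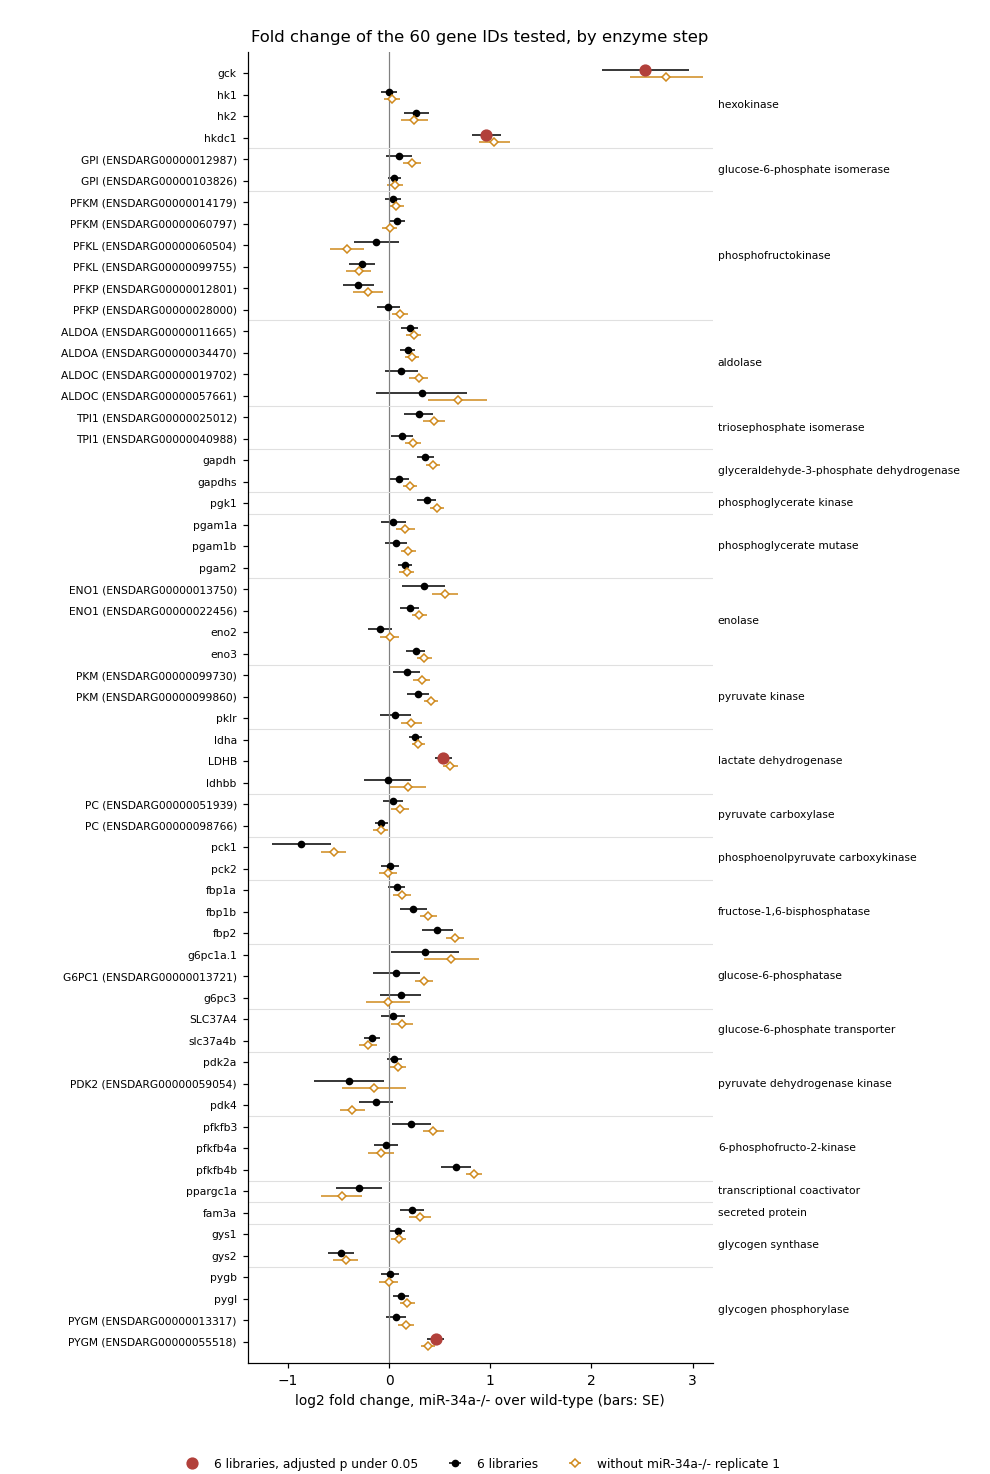
Log2 fold change of miR-34a-/- over wild-type (x axis, bars SE) for the 60 member IDs tested, grouped by enzyme step from top to bottom. Filled circles use all 6 libraries, red where the adjusted p was under 0.05 (4 members, 6.67%, against 2.60% of all genes). Open diamonds leave out miR-34a-/- replicate 1, where 23 members passed (38.3%, against 15.6% of all genes).

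In gluconeogenesis none of the 12 IDs tested passed with 6 libraries in edgeR or DESeq2. Over all genes 2.60% passed in edgeR, so a list this short may hold none. An unadjusted p under 0.05 was reached by 2 of the 12, against 15.3% of all genes. pck1, the cytosolic phosphoenolpyruvate carboxykinase in mammals a target of glucagon and glucocorticoid signals, had 13.0, 34.0 and 34.0 CPM in miR-34a-/- and 61.3, 42.5 and 44.0 CPM in wild-type. All mutant libraries were below all wild-type libraries, and mutant replicate 1 was the lowest and wild-type replicate 1 the highest. The log2 fold change was -0.87 ± 0.29 (SE; adjusted p = 0.183). Without miR-34a-/- replicate 1 it was -0.55, at an adjusted p of 0.00737, the lowest of 12 alternatives (highest 0.498). pmepa1, which overlaps pck1 in RefSeq, had at most 1.98 CPM in any library.

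pck2, the mitochondrial form, had 64.8, 63.4 and 61.6 CPM in miR-34a-/- and 68.8, 64.1 and 54.8 CPM in wild-type (log2 fold change 0.012 ± 0.0888, adjusted p = 0.963). The share of pck1 in the counts of both forms was 16.7%, 34.9% and 35.6% in miR-34a-/- and 47.1%, 39.9% and 44.5% in wild-type, with no overlap. Pyruvate carboxylase, which feeds this step with oxaloacetate, had 95.2, 97.8 and 89.4 CPM in miR-34a-/- and 97.6, 101 and 98.5 CPM in wild-type for its most counted ID, PC (ENSDARG00000098766, log2 fold change -0.08 ± 0.07, adjusted p = 0.631). The second ID, PC (ENSDARG00000051939), had a log2 fold change of 0.0375 ± 0.101.

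Fructose-1,6-bisphosphatase, which undoes the phosphofructokinase step, had 3 genes with positive fold changes. fbp2, the muscle form, had 40.6, 60.3 and 64.1 CPM in miR-34a-/- and 43.3, 39.9 and 35.4 CPM in wild-type (log2 fold change 0.48 ± 0.15 SE, 1.39-fold, adjusted p = 0.173). fbp1b, a liver-type form, had 55.7, 75.1 and 83.2 CPM in miR-34a-/- and 66.5, 57.5 and 57.2 CPM in wild-type (log2 fold change 0.24 ± 0.13, adjusted p = 0.430). In both, mutant replicates 2 and 3 were above all wild-type libraries and replicate 1 was not. Without that replicate they passed, fbp2 at 9.94e-05 (log2 fold change 0.65) and fbp1b at 0.00487 (0.39), and over 12 alternatives the adjusted p reached 0.497 and 0.805. fbp1a had a log2 fold change of 0.08 ± 0.08 (adjusted p = 0.715).

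Glucose-6-phosphatase releases free glucose from liver and kidney. g6pc1a.1 had 1.69, 4.20 and 3.29 CPM in miR-34a-/- and 3.04, 1.89 and 2.09 CPM in wild-type (log2 fold change 0.35 ± 0.34 SE, adjusted p = 0.658). Of the 2 IDs left for g6pc1a.2 and g6pc1b, G6PC1 (ENSDARG00000013721) had 21.0, 44.8 and 45.5 CPM in miR-34a-/- and 38.7, 34.5 and 32.6 CPM in wild-type (log2 fold change 0.07 ± 0.23, adjusted p = 0.914). Mutant replicate 1 was again the lowest library and replicates 2 and 3 the highest, and without replicate 1 the log2 fold change was 0.35, at an adjusted p of 0.0139 (up to 0.994 over 12 alternatives). G6PC1 (ENSDARG00000014967) had 0 or 1 count in each library, under 3 counts in both genotypes, and was the member not tested.

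g6pc3, the broadly expressed subunit, was at 3.91 to 5.70 CPM in miR-34a-/- and 3.91 to 4.83 CPM in wild-type. The transporter that brings glucose-6-phosphate to it, slc37a4b, had 40.1, 36.0 and 37.5 CPM in miR-34a-/- and 40.4, 42.6 and 44.9 CPM in wild-type, with no overlap (log2 fold change -0.17 ± 0.08 SE, adjusted p = 0.350). SLC37A4 (ENSDARG00000038106), the ID left for slc37a4a, overlapped (log2 fold change 0.0369 ± 0.116).

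Among the glycogen genes, glycogen phosphorylase frees glucose-1-phosphate and glycogen synthase adds glucose to the chain. PYGM (ENSDARG00000055518), of the muscle type, had 198, 171 and 170 CPM in miR-34a-/- and 129, 125 and 138 CPM in wild-type. It rose 1.37-fold with no overlap (log2 fold change 0.46 ± 0.0805 SE, adjusted p = 0.0157). Here mutant replicate 1 was the highest library, and without it the log2 fold change was 0.39, at an adjusted p of 0.00138. Among the fits that leave out 1 library, the call was lost without miR-34a-/- replicate 2 (0.0511) and without wild-type replicates 1 (0.0880), 2 (0.120) or 3 (0.0610), and 12 alternatives gave between 0.000124 and 0.120.

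The second muscle-type ID, PYGM (ENSDARG00000013317), had 118, 148 and 147 CPM in miR-34a-/- and 143, 132 and 119 CPM in wild-type (log2 fold change 0.07 ± 0.10, adjusted p = 0.797). The share of ENSDARG00000055518 in the counts of the 2 PYGM IDs was 62.6%, 53.5% and 53.7% in miR-34a-/- and 47.4%, 48.7% and 53.7% in wild-type, which overlapped. pygl of liver and pygb of brain had log2 fold changes of 0.12 ± 0.08 and 0.012 ± 0.0892, with adjusted p-values of 0.526 and 0.964.

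gys2, the liver glycogen synthase, had 16.1, 19.9 and 16.5 CPM in miR-34a-/- and 27.5, 22.7 and 22.2 CPM in wild-type. Each mutant library was below each wild-type library, and the difference was -0.47 ± 0.13 on the log2 scale (SE; adjusted p = 0.0936). The adjusted p was 0.0268 without miR-34a-/- replicate 1 (log2 fold change -0.43), within a range of 12 alternatives that reached 0.307. gys1, the muscle synthase, had 88.2, 96.5 and 84.1 CPM in miR-34a-/- and 84.1, 82.4 and 86.7 CPM in wild-type (log2 fold change 0.09 ± 0.07, adjusted p = 0.622). The share of gys2 in the counts of both synthases was 16.3% ± 0.8 in miR-34a-/- and 22.2% ± 2.2 in wild-type (SD, n = 3 each). In RefSeq gys2 overlaps kiss2, which had at most 0.380 CPM, and ldhba is the next coding gene but 1.

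**Figure D3:**
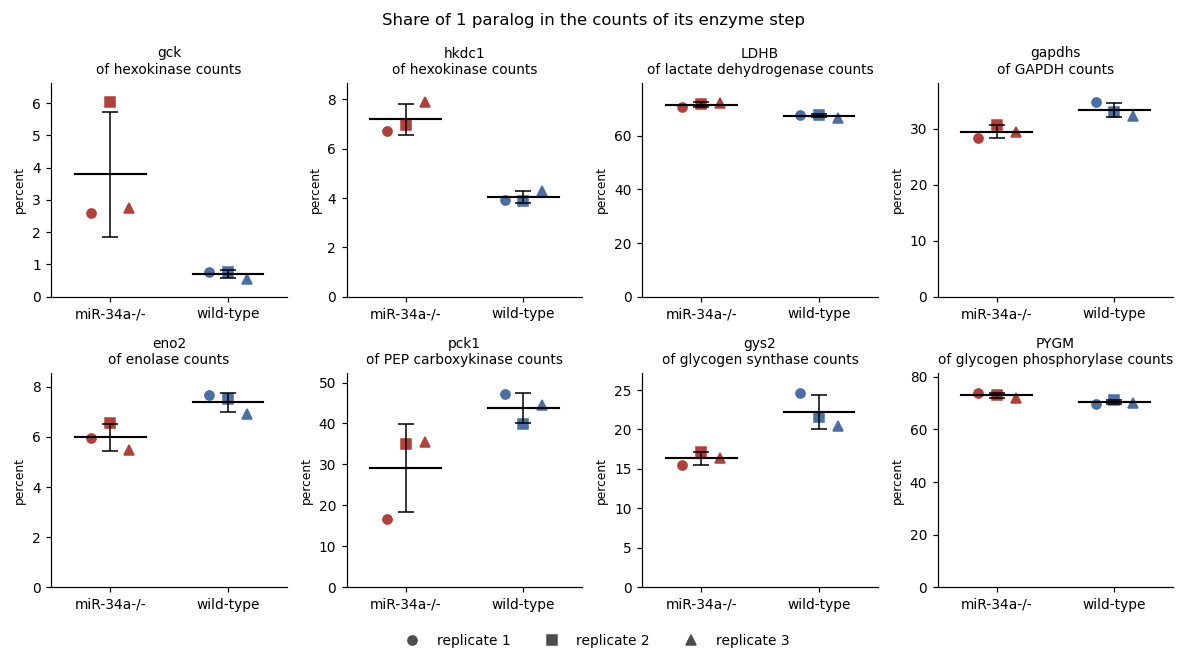
Share of 1 paralog in the summed counts of its enzyme step (y axis, percent, from 0) in the miR-34a-/- libraries (red, left) and the wild-type libraries (blue, right), with the replicate number given by the symbol; lines are means and bars SD. The shares of gck, hkdc1, LDHB and PYGM (both IDs summed) were higher and those of gapdhs, eno2, pck1 and gys2 lower in every miR-34a-/- library than in any wild-type library. Of the shares not shown, that of fbp2 was also higher with no overlap. The shares of PFKL, ALDOC, pgam2, eno3, pklr and PYGM (ENSDARG00000055518, within PYGM) overlapped between genotypes. Such shares were not computed for other genes, so no rate of separation stands beside these. They restate the counts of the members and are not a separate result.

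The regulators in the list set the flow through the routes without being part of them. None of the 8 passed with edgeR's quasi-likelihood test, where 2.60% of all genes did, so a list this short may hold none. pfkfb4b had an unadjusted p under 0.05, as did 15.3% of all genes, and passed with DESeq2 and the likelihood ratio test. pfkfb4b, a bifunctional enzyme that makes and removes fructose-2,6-bisphosphate, the strongest activator of phosphofructokinase, had 44.4, 68.6 and 69.2 CPM in miR-34a-/- and 39.4, 40.5 and 35.5 CPM in wild-type. There was no overlap, and the log2 fold change was 0.66 ± 0.15 (SE), or 1.58-fold (adjusted p = 0.0541). It was under 0.05 in 4 of 12 alternatives, from 2.15e-06 without miR-34a-/- replicate 1 (log2 fold change 0.84), up to 0.245. pfkfb3 had 14.2, 24.9 and 24.4 CPM in miR-34a-/- and 17.4, 19.9 and 17.5 CPM in wild-type (log2 fold change 0.22 ± 0.19, adjusted p = 0.624), and passed without mutant replicate 1 (0.44, adjusted p = 0.0113). pfkfb4a was at 12.5 to 13.9 CPM in miR-34a-/- and 12.0 to 14.1 CPM in wild-type.

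Pyruvate dehydrogenase kinases inhibit pyruvate dehydrogenase and so hold back the conversion of pyruvate to acetyl-CoA inside mitochondria. pdk2a had 48.7, 54.5 and 51.2 CPM in miR-34a-/- and 48.1, 52.4 and 48.3 CPM in wild-type (log2 fold change 0.05 ± 0.08 SE, adjusted p = 0.782). pdk4, which is induced by fasting in mammals, had a log2 fold change of -0.13 ± 0.17, and PDK2 (ENSDARG00000059054), at no more than 2.95 CPM in any library, -0.40 ± 0.35. ppargc1a, a coactivator that drives gluconeogenic and mitochondrial genes in mammalian liver, had 13.7, 12.8 and 8.19 CPM in miR-34a-/- and 18.3, 11.6 and 11.8 CPM in wild-type (log2 fold change -0.30 ± 0.23, adjusted p = 0.577). fam3a had 26.9, 29.4 and 33.4 CPM in miR-34a-/- and 24.5, 29.3 and 23.1 CPM in wild-type (log2 fold change 0.23 ± 0.12, adjusted p = 0.394). All 5 of these overlapped between genotypes.

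Over the 60 members tested the median log2 fold change was 0.09, against -0.01 for all genes, and 46 were positive and 14 negative. Of all 19240 genes tested, 9248 were positive. The median was 0.14 for glycolysis (28 of 34 positive), 0.06 for gluconeogenesis (9 of 12), 0.08 for glycogen (5 of 6) and 0.01 for regulators (4 of 8). All 14 IDs of muscle-type paralogs were positive, with a median of 0.19 and 1 that passed. The types were assigned by gene or family name, not by expression in a tissue, which whole embryos do not give. The IDs of broadly expressed genes were nearly as one-sided, with 14 of 15 positive and a median of 0.10. Of the 13 liver-type IDs tested, 8 were positive and 5 negative, with a median of 0.06 and 1 that passed (gck). Between genotypes 10 members did not overlap and were higher (16.7%), against 11.0% of all genes, and 3 did not overlap and were lower (5.0%, pck1, gys2 and slc37a4b), against 10.2% of all genes.

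Summed glycolysis counts were 0.834%, 0.929% and 0.951% of all counts in miR-34a-/- and 0.847%, 0.785% and 0.767% in wild-type, so mutant replicate 1 lay below wild-type replicate 1. Gluconeogenesis counts overlapped, at 0.0439%, 0.0514% and 0.0506% in miR-34a-/- and 0.0541%, 0.0495% and 0.0479% in wild-type. Glycogen counts were 0.0540%, 0.0540% and 0.0513% in miR-34a-/- and 0.0511%, 0.0472% and 0.0487% in wild-type, where the closest libraries nearly met. In CPM, scaled as for single genes, the glycogen sums were 531, 554 and 541 in miR-34a-/- and 502, 466 and 476 in wild-type.

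The position of miR-34a-/- replicate 1 recurred through the list. In 44 of 60 members (73.3%) it was below both other mutant libraries, against 39.8% of all genes. In 23 members (38.3%) replicates 2 and 3 exceeded every wild-type library while replicate 1 did not, against 11.2% of all genes. Wild-type replicate 1 was also the highest wild-type library in 44 members (73.3%), against 36.7% of all genes. Within each genotype the same library was therefore often the extreme one through the list.

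Without miR-34a-/- replicate 1, 23 members passed (38.3%), against 15.6% of all genes. All 4 earlier calls were among them. Higher in miR-34a-/- were 21 members (35.0%, against 7.09% of all genes), and lower were 2, pck1 and gys2 (3.33%, against 8.46%). The library left out was the lowest mutant library in 44 of 60 members, so these shares are not a result separate from its position. The members that passed as higher included 15 of glycolysis, among them gapdh, pgk1, eno3, ldha and both ALDOA, ENO1 and PKM IDs, and 3 of gluconeogenesis (fbp2, fbp1b and G6PC1, ENSDARG00000013721). TPI1 (ENSDARG00000025012) and ALDOC (ENSDARG00000019702) were also among those of glycolysis. The others that passed as higher were PYGM (ENSDARG00000055518) of glycogen and the regulators pfkfb3 and pfkfb4b. The median log2 fold change of the members was 0.19 in this fit, against -0.01 for all genes, and again 46 were positive and 14 negative. By route it was 0.23 for glycolysis, 0.12 for gluconeogenesis, 0.13 for glycogen and 0.0062 for regulators. Of the muscle-type IDs 8 of 14 passed (median 0.25), and of the liver-type IDs tested 5 of 13, 3 higher and 2 lower (median 0.13). Of the broadly expressed IDs 5 of 15 passed, all higher (median 0.19). Of the brain-type IDs 1 of 4 passed and of the remaining IDs 4 of 14, also higher. No phosphofructokinase ID passed in either fit or with DESeq2, and 0 had an unadjusted p under 0.05 with 6 libraries.

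**Figure D4:**
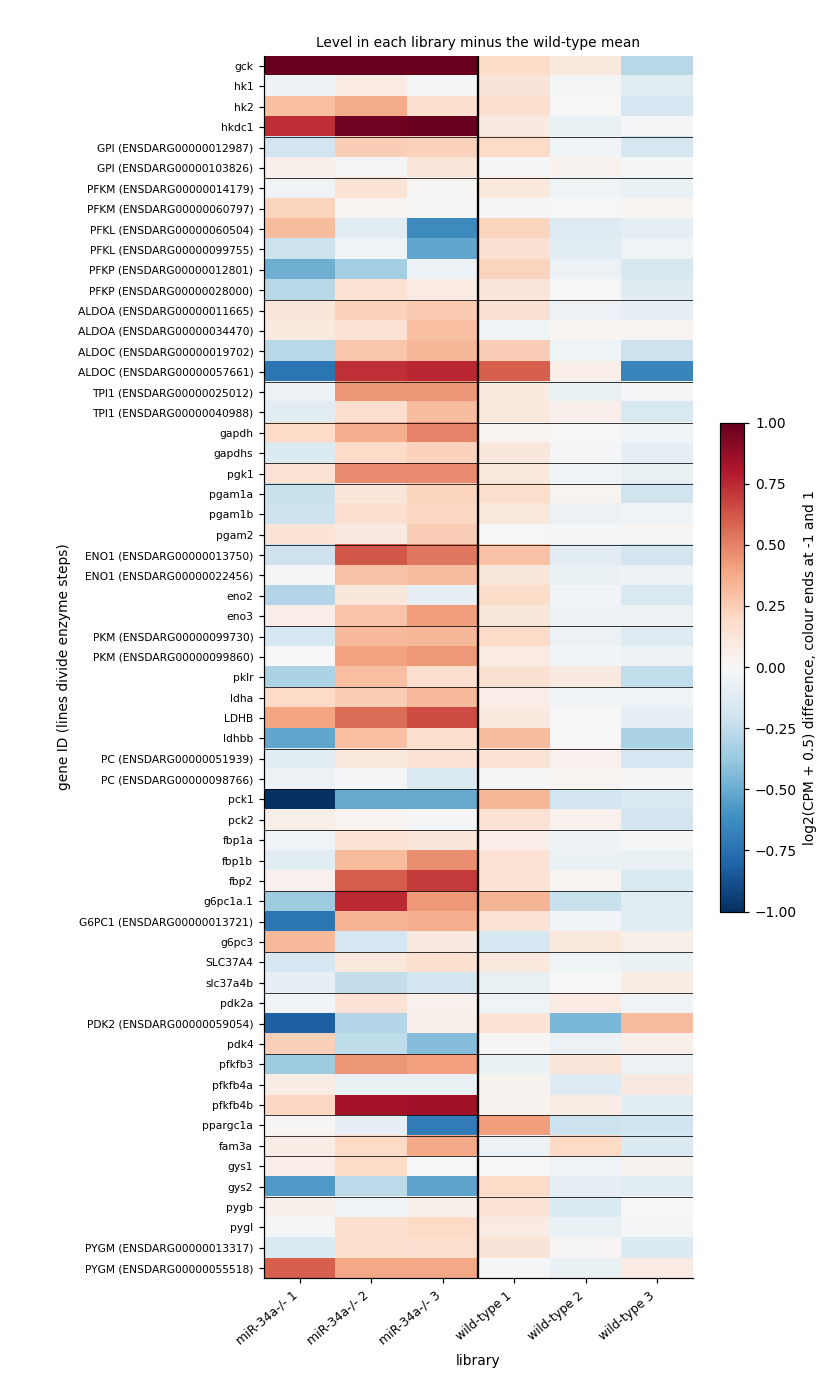
Level of the 60 member IDs tested (rows, lines dividing enzyme steps) in each library (columns, miR-34a-/- left and wild-type right), as log2(CPM + 0.5) minus the wild-type mean; red is above and blue below, and colours end at -1 and 1. Most rows are redder in miR-34a-/- replicates 2 and 3 than in replicate 1, and 44 of 60 have wild-type replicate 1 as the highest wild-type library.

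Whole embryos hold many cell types, so fewer cells of a type and less RNA per cell cannot be told apart. Photoreceptors are known for their high rate of glycolysis, and their 15 marker IDs summed to 495 to 1700 CPM in miR-34a-/- and 816 to 1611 CPM in wild-type. As a share of all counts they were 0.0503%, 0.160% and 0.161% in miR-34a-/- and 0.164%, 0.118% and 0.0836% in wild-type, with the lowest library again mutant replicate 1 and the highest wild-type library again replicate 1. The exocrine pancreas, islet, enterocyte and heart lists shared these extremes, and the other marker lists did not. Exocrine pancreas was at 0.00169%, 0.00401% and 0.00315% in miR-34a-/- and 0.00346%, 0.00266% and 0.00230% in wild-type. With 6 libraries none of the 14 photoreceptor IDs tested passed in edgeR, where 2.60% of all genes did, or in DESeq2. None had an unadjusted p under 0.05, against 15.3% of all genes, and their median log2 fold change was -0.05. In the fit without miR-34a-/- replicate 1, where 23 members passed, 4 photoreceptor IDs did, 3 higher and 1 lower. Of all genes 15.6% passed in that fit. The median of the photoreceptor IDs was 0.39 there. The part of photoreceptors in the values of the members was not tested.

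Beside the muscle-type members, the 13 fast muscle marker IDs summed to 4.83%, 5.20% and 5.33% of counts in miR-34a-/- and 5.01%, 5.08% and 5.16% in wild-type, with a median log2 fold change of 0.10 and 1 that passed (ACTA1, ENSDARG00000036371, 0.54). Of these 13 markers 10 had positive log2 fold changes and 3 negative. Without miR-34a-/- replicate 1, where 8 of 14 muscle-type members passed, 5 of these 13 markers passed as higher and their median was 0.16. In that fit 12 of the markers were positive and 1 negative. Of all genes 7.09% passed as higher in that fit. Of the 5 slow muscle marker IDs tested in it, 1 passed as higher and 1 as lower. Beside the liver-type members, the 11 liver marker IDs summed to 0.603%, 0.604% and 0.641% in miR-34a-/- and 0.676%, 0.696% and 0.648% in wild-type. These percentages did not overlap between genotypes, but the sums in CPM did, at 5925 to 6766 in miR-34a-/- and 6324 to 6870 in wild-type. The median log2 fold change of the liver marker IDs was -0.13, with 4 positive and 7 negative. apoa2, the most counted, had 3250, 3570 and 4123 CPM in miR-34a-/- and 3509, 3581 and 3264 CPM in wild-type (log2 fold change 0.08). Of the liver IDs, 2 passed as lower, tfa (transferrin, log2 fold change -0.37) and ahsg1 (fetuin, -1.88). tfa passed in 7 of 12 alternatives and ahsg1 in 7 of 11. ahsg1 had low counts, 8, 10 and 8 in miR-34a-/- and 36, 37 and 24 in wild-type. fabp10a was at 0.69 with an adjusted p of 0.212. With miR-34a-/- replicate 1 left out, 1 liver marker passed as higher (fabp10a, 0.94) and 3 as lower. The 5 islet IDs summed to 174 to 226 CPM in miR-34a-/- and 209 to 217 CPM in wild-type. They were listed for the other site of gck, and none passed or had an unadjusted p under 0.05. Most of each sum was neurod1, at 147, 188 and 190 CPM in miR-34a-/- and 188, 184 and 177 CPM in wild-type. The other islet IDs, ins, gcga, sst2 and pdx1, had at most 12.4 CPM each in any library. The sum therefore mainly followed 1 gene and was not read as an islet level beside gck. Red cell markers, 7 IDs, summed to 1847 to 2292 CPM in miR-34a-/- and 613 to 690 CPM in wild-type, and 6 of them passed as higher. The enterocyte list of 4 IDs summed to 120 to 154 CPM in miR-34a-/- and 159 to 176 CPM in wild-type, where fabp2 passed as lower (-0.70). The other enterocyte IDs, vil1, cdh17 and apoa4a, had positive log2 fold changes (0.37, 0.16 and 0.06) and did not pass. The part of these cell types in the members' values was not tested.

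**Figure D5:**
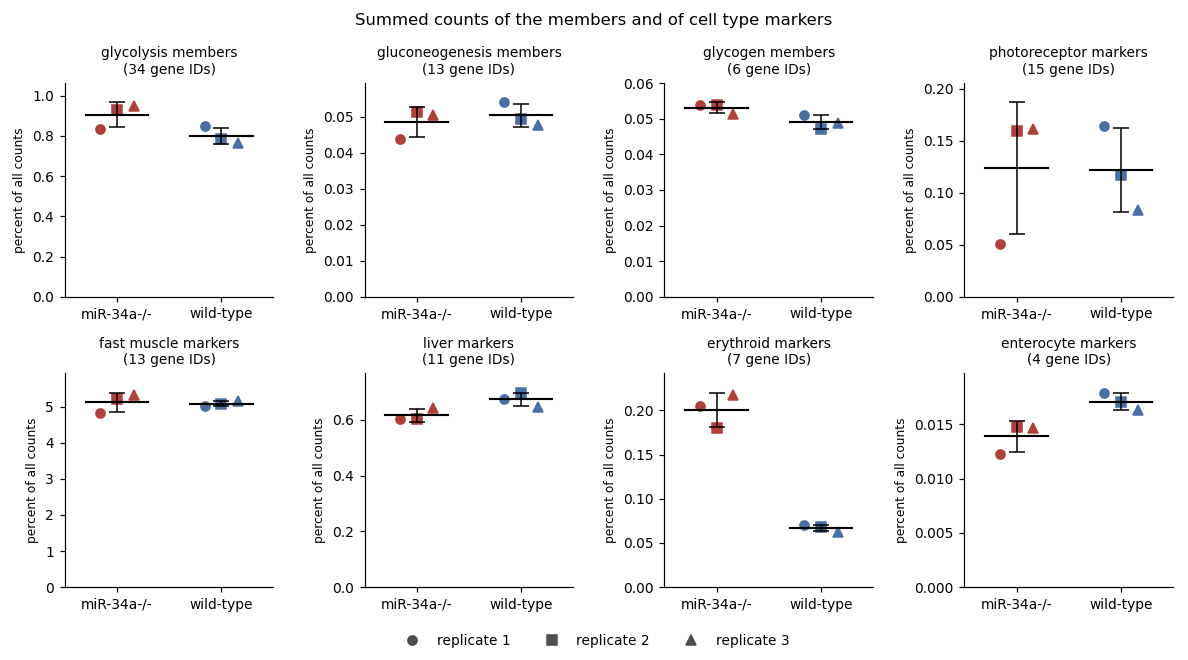
Summed counts as a percentage of all counts (y axis, from 0) for the glycolysis, gluconeogenesis and glycogen members and for 5 lists of cell type markers, in the miR-34a-/- libraries (red, left) and the wild-type libraries (blue, right); symbols give the replicate number, lines means and bars SD. Photoreceptor markers were lowest in miR-34a-/- replicate 1 (0.0503%), and fast muscle markers overlapped. In all miR-34a-/- libraries the erythroid sum was higher and the enterocyte and liver sums lower than in any wild-type library. In CPM the liver sums overlapped, at 5925 to 6766 in miR-34a-/- and 6324 to 6870 in wild-type. Only fabp2 of the 4 enterocyte IDs had a negative log2 fold change.

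Around the members, 88 further gene IDs of connected routes were tested, of which 3 passed as higher (3.41%, against 1.33% of all genes) and 2 as lower (2.27%, against 1.27%), together 5.68% against 2.60%. Leaving out miR-34a-/- replicate 1, 13 passed as higher and 6 as lower, 21.6% against 15.6% of all genes. In the pentose phosphate branch, which drains glucose-6-phosphate into NADPH and ribose, taldo1 (transaldolase) had 120, 125 and 127 CPM in miR-34a-/- and 94.2, 82.5 and 86.7 CPM in wild-type (log2 fold change 0.49 ± 0.07 SE, adjusted p = 0.00613). rpia, which isomerises ribose-5-phosphate, had 35.5, 38.1 and 38.1 CPM in miR-34a-/- and 66.8, 62.9 and 68.6 CPM in wild-type (log2 fold change -0.83 ± 0.07, adjusted p = 0.000304). These 2 genes of the same branch moved in opposite directions. rpia passed in all 12 alternatives, while taldo1 was over the threshold without wild-type replicate 2 (0.0562) or 3 (0.0570).

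In glycogen turnover, GBE1 (ENSDARG00000099524), a branching enzyme, had 6.68, 6.45 and 5.80 CPM in miR-34a-/- and 10.04, 9.56 and 9.69 CPM in wild-type (log2 fold change -0.64 ± 0.14 SE, adjusted p = 0.0420). It was the only 1 of 19 tested IDs of that list to pass. tat (tyrosine aminotransferase, which supplies carbon for gluconeogenesis) had 9.35, 8.41 and 10.3 CPM in miR-34a-/- and 5.21, 5.77 and 6.27 CPM in wild-type (log2 fold change 0.71 ± 0.15, adjusted p = 0.0419). IGFBP1 (insulin-like growth factor binding protein, raised by fasting in mammals) had 43.6, 51.5 and 69.4 CPM in miR-34a-/- and 32.8, 31.2 and 31.5 CPM in wild-type (log2 fold change 0.79 ± 0.15, adjusted p = 0.0215). None passed in edgeR's quasi-likelihood test or DESeq2 among 18 IDs of pyruvate and lactate handling and 10 of fructose and galactose entry. Of each list 1 had an unadjusted p under 0.05, against 15.3% of all genes. In the second list 1 passed with the likelihood ratio test. GBE1 and tat were over the threshold when any library other than miR-34a-/- replicate 1 was left out (0.105 to 0.175 and 0.0946 to 0.183). Both were also over it in the DESeq2 Wald test (0.0987 and 0.0616), and tat at a mean count of at least 50 (0.0517). IGFBP1 was over it without miR-34a-/- replicate 2 (0.0694) or wild-type replicate 1 (0.103), 2 (0.122) or 3 (0.114).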

How the data were processed

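For the 6 poly-A RNA-seq libraries the authors deposited raw counts by Ensembl gene, in 1 table. Per the labels, reads were trimmed with Trim Galore 0.4.4 and mapped with STAR 2.7.8 to danRer11; counting mode, strand, treatment of multiply mapped reads and annotation are not given in the sources used here, so counts of near-identical paralogs are uncertain. From these deposited counts, genes were filtered with filterByExpr, scaled by TMM and tested by genotype with the quasi-likelihood test of edgeR 4.0.16 in R 4.3.3, with Benjamini-Hochberg adjustment over 19240 genes, two-sided; SE is the log2 fold change divided by the square root of F. Values per library are CPM with TMM-scaled library sizes. Symbols covered 29201 of 32520 IDs.

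The members and lists were chosen with earlier results of these data known, and neighbours were looked up after the values were seen. Genes given with values in each library were members with an adjusted p under 0.05 or an unadjusted p under 0.05, pck1, pck2, fam3a and the g6pc1 genes, and the most counted member of each step; further members were added after their values were seen. Of the connected routes, 95 of 99 symbols matched, and those that passed are named. Alternatives were DESeq2 size factors, no filter, a mean count of at least 50, the DESeq2 1.42.0 Wald test, the edgeR likelihood ratio test, a replicate block, fold thresholds of 1.5 and 2, and leaving out each library. Labels number the replicates but do not say that pools came from separate clutches, so p-values measure the spread between pools. Libraries of 1 genotype differed by more than sampling noise (the smallest ratio of chi-square to its degrees of freedom was 1.735). Floors cover counting error only.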

Additional observations from a re-analysis of the deposited data

How the results depend on the processing

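The number of members that passed was 4 with DESeq2 size factors and 7 without a filter. It was 3 at a mean count of at least 50, a filter that removed gck. It was 8 with the DESeq2 Wald test, 9 with the likelihood ratio test, 2 at 1.5-fold and 1 at 2-fold. With a library left out it was lowest, at 0, without wild-type replicate 2 and highest, at 23, without miR-34a-/- replicate 1. Not all of these settings have the share of all genes beside them. The counts were therefore not read as a result about the members. Connected-route genes that passed numbered 5, against 9 without a filter, 11 with the likelihood ratio test and 1 to 19 with a library left out. Over all genes 500 passed, against 971 with the likelihood ratio test, 223 at 2-fold and 190 to 3022 with a library left out. The cause of these shifts was not tested.

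Libraries with the same replicate number did not deviate together (correlations of deviations -0.067, 0.0012 and -0.18). With the replicate block 2 members passed (gck and hkdc1), 3 connected-route genes and 238 genes overall. The adjusted p was then 0.0589 for LDHB, 0.0626 for PYGM (ENSDARG00000055518), 0.127 for GBE1 and 0.106 for tat.

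Of 358 alternative values of 30 members, 9 had the other sign, all of members near 0. They were hk1 at a mean count of at least 50 (-0.0062) and without miR-34a-/- replicate 2 (-0.0352), wild-type replicate 2 (-0.0113) or 3 (-0.0503), PFKM (ENSDARG00000014179) without miR-34a-/- replicate 2 (-0.0100), pck2 without miR-34a-/- replicate 1 (-0.0074) or wild-type replicate 3 (-0.0720), and G6PC1 (ENSDARG00000013721) without miR-34a-/- replicate 2 (-0.0723) or 3 (-0.114). With each library left out in turn, hk1 reached 0.0699, PFKM (ENSDARG00000014179) 0.0925, pck2 0.0891 and G6PC1 (ENSDARG00000013721) 0.349 at most. Paralog shares per coding length were planned and not run, since no length table was used here. Depth limits the members with the lowest levels, G6PC1 (ENSDARG00000014967), PDK2 (ENSDARG00000059054), g6pc1a.1, ALDOC (ENSDARG00000057661) and gck, which averaged 0.0573 to 3.68 CPM.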
